A study of Sus scrofa with 8 samples.

Results

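The apolipoproteins considered here are 8 protein components of plasma lipoproteins whose transcripts are found in liver: APOB, APOE, APOA1, APOA2, APOC3, APOA4, APOH and APOM. They were taken as all probe sets of the porcine array whose annotation holds exactly one of these symbols. This gave 8 genes of 6765, and 9 probe sets of the 23999 left after controls named AFFX were taken out. APOE had 2 and each of the others had 1. All 9 passed the filter on dim probe sets, which kept 14399. Liver RNA, taken at the tip of 1 lobe, was measured in 4 Korean native pigs (KNP), aged 7 months, and 4 Yorkshire pigs (YS), aged 6 months, with 1 array per animal. The labels name no treatment or engineered allele in either breed, and the pigs of both breeds were kept alike. Breed and age go together in these animals and cannot be told apart. The question of the study is which genes differ in expression between the livers of the breeds.

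Apolipoproteins wrap the fat and cholesterol that the liver sends into the blood. APOB is the scaffold of very low density lipoprotein (VLDL) and stays on the particle as it becomes low density lipoprotein (LDL), while APOA1 and APOA2 build high density lipoprotein (HDL). Smaller exchangeable apolipoproteins such as APOE and APOC3 move between particles and set how fast lipases and receptors clear them. In mammals most of these genes are switched on in hepatocytes by liver nuclear factors such as HNF4A. By the RefSeq genes of the pig assembly Sscrofa11.1, APOA4, APOC3 and APOA1 lie next to each other in this order, whereas the other members have none of the 8 as a neighbour.

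The arrays differed between the breeds in more than these genes. The median intensity of the arrays was similar, at 152 to 169 in KNP and 153 to 179 in YS, but the highest intensity was 50730 to 60066 in KNP and 83646 to 95919 in YS. The geometric mean over 9 spiked control probe sets, which do not read pig RNA, was 4858 ± 685 for KNP and 8738 ± 953 for YS (SD, n = 4 per breed, two-sided exact permutation p = 0.0286, the smallest that 4 against 4 allows). Actin was read more strongly at its 3' end than at its 5' end, a mark of shorter RNA, by a factor of 4.83 ± 1.88 in KNP livers and 10.5 ± 1.45 in YS livers (SD, n = 4 per breed, exact permutation p = 0.0286). The same ratio for GAPDH was 3.04 ± 0.71 in KNP and 3.50 ± 0.41 in YS, with overlap (exact permutation p = 0.314, n = 4 per breed). Array brightness, the actin ratio and breed cannot be told apart here. The hepatocyte identity of the samples was clear in both breeds, since albumin (ALB) ranked 1 or 3 among all probe sets in KNP and 1 in YS.

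On the deposited scale 5 of the 8 genes fell in KNP: APOC3, APOA1, APOH, APOB and the brighter probe set of APOE, each by between 0.52 and 0.69 on the log2 scale, which puts the KNP level at 0.620 to 0.700 of the YS level. Under quantile normalization APOA1, APOE and APOH showed 0.02, 0.03 and 0.02, each closer to 0 than its SE. APOC3 and APOB stayed lower in KNP there, at −0.09 (SE 0.08) and −0.06 (SE 0.09), not called. With each array centred on ALB all of the 5 genes lay above 0. That holds for any gene that fell by less than ALB (−0.69), and the median of all probe sets moved to 0.68. APOA2, APOM and APOA4 did not pass the test. In the breed comparison 5 of 9 probe sets were called lower, against 0.611% of all probe sets tested, and 0 were called higher, against 0.424%. In either direction 1.03% of all probe sets were called. No member had a higher fitted mean in KNP, and the median difference was −0.52 over the 9 probe sets, against −0.01 over all probe sets tested. These calls use limma with Benjamini-Hochberg adjustment over all 14399 probe sets and a threshold of 0.05, and differences are KNP minus YS in log2(intensity + 16). In 6 of the 9 probe sets all KNP animals lay below all YS animals, which was so in 5.67% of the probe sets tested, and 9.68% had no overlap in one direction or the other. For the 5 called genes the calls, but not the direction of the differences, depended on single animals. Without KNP replicate 1 or any one of the YS animals 0 of the 9 were called. Without KNP replicate 2 there were 2 calls, and without KNP replicate 3 there was 1. The 5 differences stayed between −0.73 and −0.48 with any 1 animal left out. Calls over all probe sets dropped as well, from 149 to between 8 and 119. Without a filter on dim probe sets 0 were called. With all arrays forced to one distribution by quantile normalization, 0 of the 9 were called, where 0.0972% of all probe sets were.

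**Figure D1:**
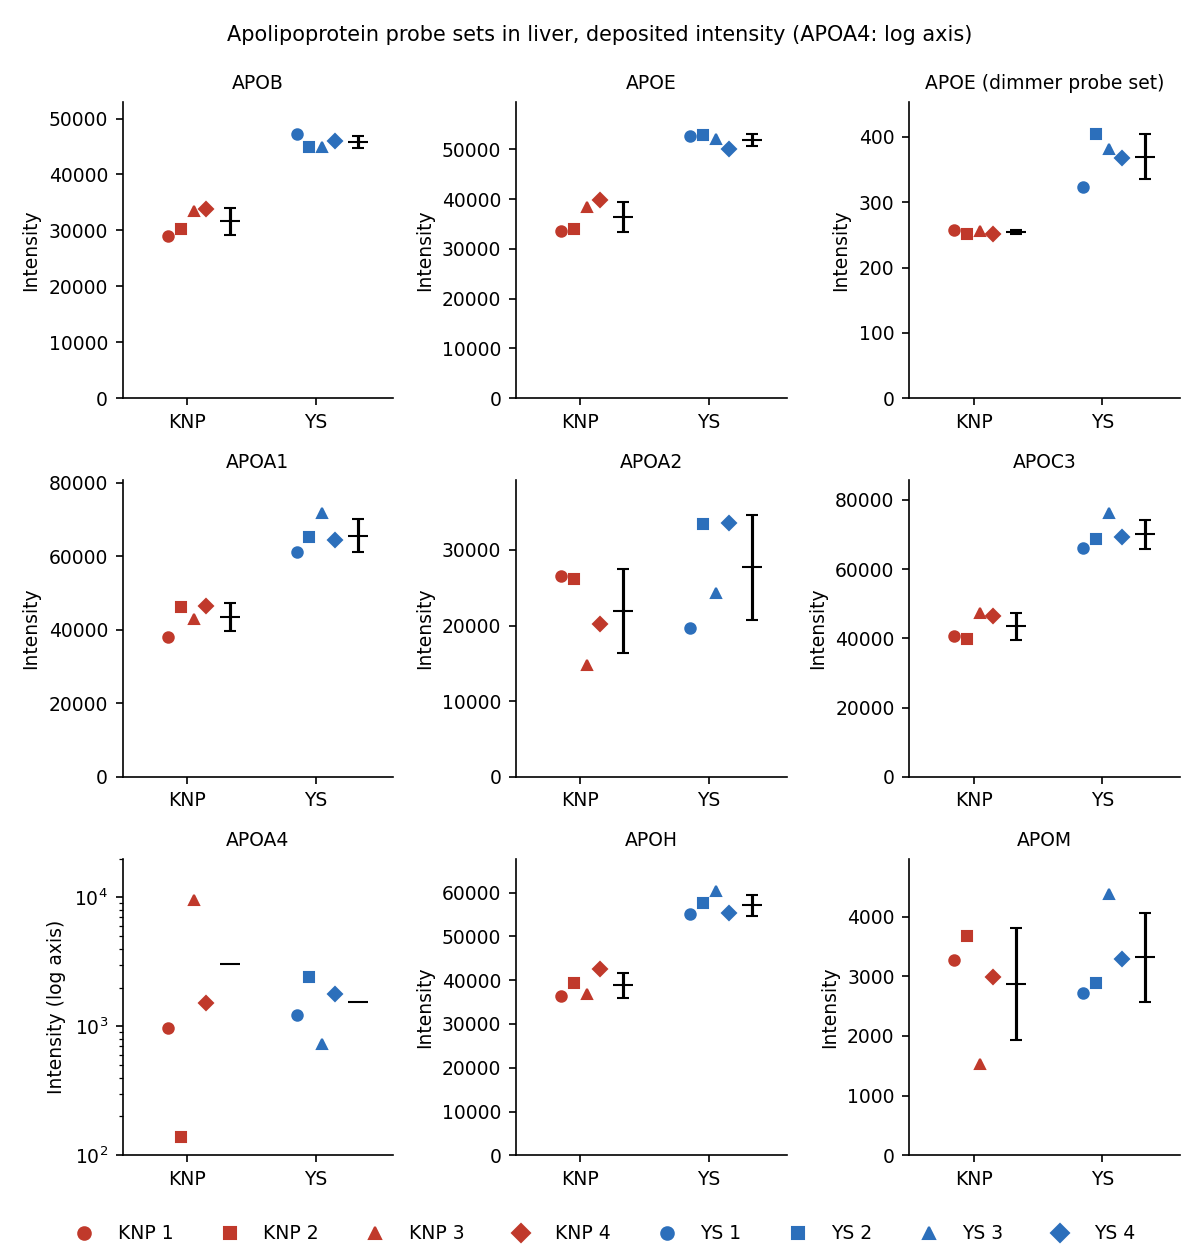
Deposited intensity of each apolipoprotein probe set in each of the 8 livers, KNP left of YS, with the mean and the SD over 4 animals as bars (APOA4 has a log axis and its mean without SD). APOB, APOE, APOA1, APOC3 and APOH lie lower in all 4 KNP animals than in any YS animal, while APOA2, APOM and APOA4 overlap.

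APOB, the scaffold of VLDL and LDL, had intensities of 29038, 30228, 33442 and 33751 in the 4 KNP livers, against 47296, 44948, 44984 and 46055 in the YS livers. The YS values differed from each other by a factor of 1.05 at most, the closest spacing of any member in YS, and the highest KNP animal stayed well below the lowest YS animal. The difference was −0.54 (SE 0.10, limma adjusted p = 0.0397; 31615 ± 2343 against 45821 ± 1110, SD, n = 4 per breed).

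APOE, the ligand through which remnant particles are taken up by LDL receptor family members, is the annotation of a pair of probe sets. The brighter one had 33585, 33981, 38328 and 39776 in KNP, against 52635, 52906, 52039 and 50129 in YS. The breeds did not overlap, and the difference was −0.52 (SE 0.10, adjusted p = 0.0449; 36417 ± 3103 against 51927 ± 1252). The dimmer one had 257, 252, 257 and 251 in KNP, against 323, 405, 382 and 367 in YS. Its KNP values were nearly equal, with an SD of 3.13, and they too lay below all YS values. Its difference of −0.51 was about as large as that of the brighter probe set but did not pass (SE 0.16, adjusted p = 0.158). Both probe sets share the gene, so they are not independent evidence for it. Which strand the dimmer one reads was not settled from the files used here, so only its annotation ties it to APOE.

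APOA1, the main protein of HDL and the activator of the cholesterol-esterifying enzyme LCAT, had 38150, 46306, 42881 and 46508 in KNP, against 61080, 65191, 71695 and 64328 in YS. All KNP animals were below all YS animals, with a difference of −0.60 (SE 0.11, adjusted p = 0.0362; 43461 ± 3912 against 65573 ± 4448). APOC3, an inhibitor of lipoprotein lipase that slows the clearance of triglyceride-rich particles, had 40549, 39803, 47436 and 46350 in KNP, against 66182, 68796, 76119 and 69165 in YS. APOC3 had the largest fall of the 8 genes, at −0.69 (SE 0.11, adjusted p = 0.0282; 43534 ± 3915 against 70066 ± 4248), and was the only one whose call held without any single KNP animal except replicate 1. APOH, also called beta-2-glycoprotein I, is a plasma protein that binds anionic phospholipids. It had 36404, 39261, 36880 and 42640 in KNP, against 55135, 57552, 60406 and 55347 in YS, without overlap and with a difference of −0.56 (SE 0.10, adjusted p = 0.0362; 38796 ± 2851 against 57110 ± 2454).

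APOA2, the second HDL protein, had 26536, 26137, 14826 and 20164 in KNP, against 19651, 33483, 24252 and 33557 in YS. The breeds overlapped widely: KNP replicates 1 and 2 lay above YS replicates 1 and 3. The difference was −0.34 (SE 0.22, 95% confidence interval −0.83 to 0.15, adjusted p = 0.509; 21916 ± 5553 against 27736 ± 6938). APOM, an HDL protein that carries sphingosine 1-phosphate, had 3274, 3677, 1527 and 2981 in KNP, against 2717, 2883, 4377 and 3291 in YS. KNP replicate 3 was the lowest of the 8 animals and the other KNP animals lay within the YS range. The difference was −0.26 (95% confidence interval −0.84 to 0.32, adjusted p = 0.687) and 0.02 without KNP replicate 3.

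APOA4, a lipid-binding apolipoprotein that in most mammals is made mainly in the intestine, varied far more between animals than between breeds. It had 975, 140, 9483 and 1511 in KNP, against 1225, 2403, 725 and 1773 in YS. The lowest and the highest of the 8 values were both KNP animals, replicates 2 and 3, and were 67.9-fold apart, while the YS animals spanned a factor of 3.31. The 140 of KNP replicate 2 lay below the median of its array, 155, so the 67.9-fold span rests on a dim value. The log2 difference was −0.21 (SE 0.94, 95% confidence interval −2.28 to 1.87, adjusted p = 0.941), and the interval is wide enough to hold a change of several fold in either direction. It was 0.78 without KNP replicate 2 and −1.19 without KNP replicate 3, so single animals set its sign. The mean intensity ran the other way, at 3027 ± 4341 in KNP and 1532 ± 722 in YS, since the highest animal weighs more on the linear scale.

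The brightness of the probe sets moved with these falls. Among other probe sets whose mean log2 value lay between 10 and 11 the median difference was 0.04. It was −0.22 for 203 probe sets between 13 and 14, −0.39 for 166 between 14 and 15, and −0.58 for 63 of 15 or more. Each called member was in the last of these classes. Of the 50 probe sets nearest to each called member in mean brightness, 16 to 31 were called lower themselves and 41 to 46 showed no overlap between the breeds, with median differences between −0.60 and −0.53. These sets of neighbours share probe sets, so they are not separate comparisons. APOA1 and APOC3 had the same 50, with mean log2 values from 15.18 to 16.08. Among those were ALB, TF, HP and C3, which return below as other secreted liver proteins.

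**Figure D2:**
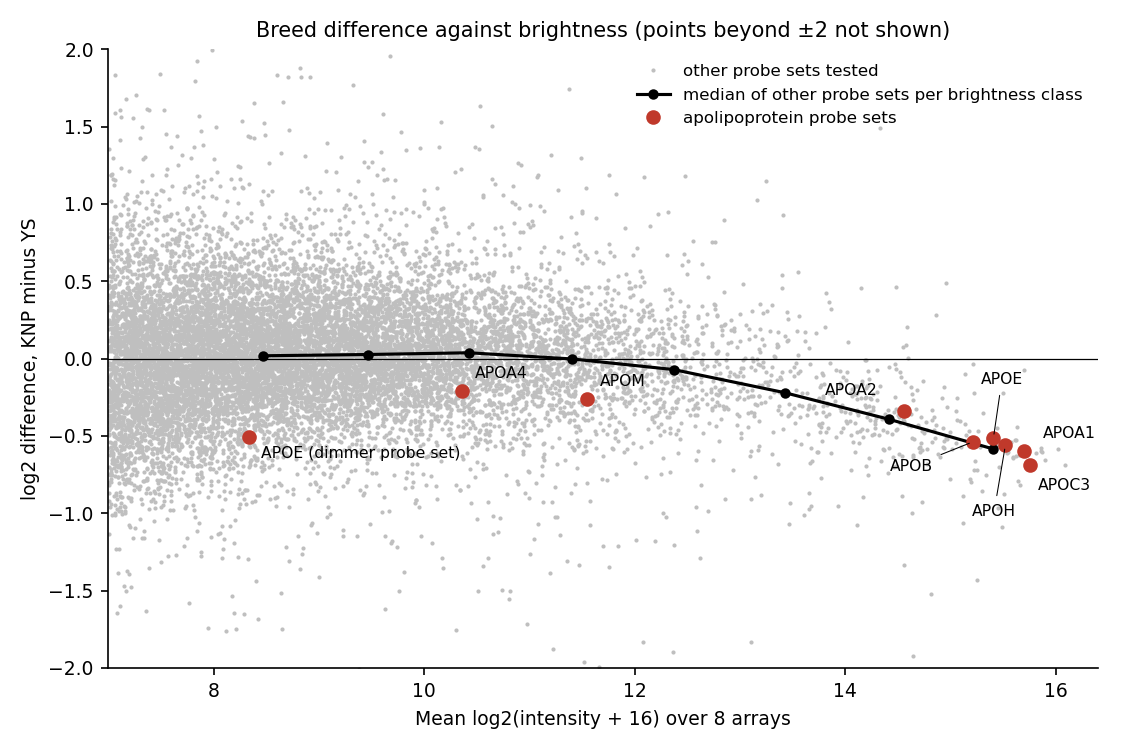
Breed difference (KNP minus YS, log2) against mean log2 intensity over the 8 arrays, for the 9 apolipoprotein probe sets (red), other probe sets tested (grey, those with a mean of 7 or more and a difference within ±2) and the median of the latter per brightness class (black line). The black line falls to −0.58 at the bright end, and APOB, APOE, APOH, APOA1 and APOC3 lie along it. The dimmer APOE probe set lies below it, and so do APOM at −0.26 and APOA4 at −0.21, by less.

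The members were therefore also set against their 50 nearest probe sets in brightness, by taking the median of those from each array's log2 value before the same limma fit. On that scale 0 of the 9 probe sets were called lower (0.0208% of all probe sets were) and 0 higher (0.0556%), and 1 of the 9 had an unadjusted p under 0.05, as had 1994 of all 14399. APOC3 showed −0.07 (95% confidence interval −0.25 to 0.11), APOB −0.02 (−0.21 to 0.17), APOA1 0.02 (−0.19 to 0.23), APOE 0.05 (−0.13 to 0.24) and APOH 0.06 (−0.13 to 0.26). Each interval covers 0, and none reaches the fall of the same gene on the deposited scale. The median over the 9 probe sets was −0.02, 5 were lower and 4 higher in KNP, and adjusted p ran from 0.157 to 0.949. The split depends on the number of neighbours: with 200, which reach into dimmer probe sets, 8 were lower and the median was −0.18, with APOC3 at −0.27, APOA1 at −0.18, APOH at −0.14, APOB at −0.12 and APOE at −0.10, and 0 were called.

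The called members differed in how closely the animals of a breed lay together. Relative to its neighbours APOB stood at −0.05, 0.04, 0.05 and −0.03 in KNP, against 0.10, −0.01, −0.02 and 0.03 in YS. APOE, with its brighter probe set, stood at -0.002, 0.02, 0.08 and 0.02 in KNP, against 0.03, 0.01, −0.04 and −0.09 in YS. In both genes the breeds overlapped within a narrow range. APOA1 was wider, at 0.11, 0.40, 0.13 and 0.13 in KNP, against 0.08, 0.21, 0.24 and 0.16 in YS, with KNP replicate 2 the highest. On the deposited scale the SD within a breed was 0.08 to 0.12 (log2) for the called members, against a median of 0.14 to 0.16 for their neighbours. The place of these probe sets among the 23999 of each array overlapped as well: ranked by intensity, APOC3 ran from 10 to 19 in KNP and from 5 to 11 in YS, APOA1 from 5 to 23 and from 10 to 20, and APOB from 52 to 65 and from 51 to 58.

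**Figure D3:**
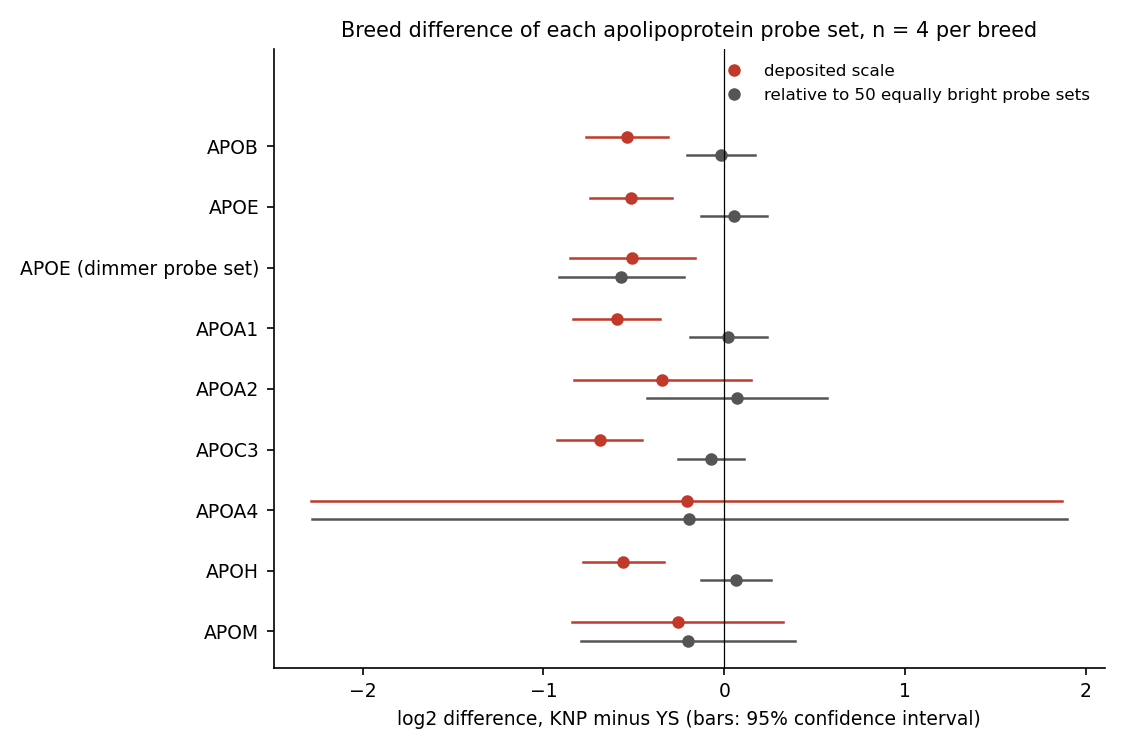
Breed difference (KNP minus YS, log2) of each apolipoprotein probe set with its 95% confidence interval, on the deposited scale (red) and relative to 50 equally bright probe sets (grey), n = 4 per breed. The intervals of APOB, APOE, APOA1, APOC3 and APOH lie below 0 on the deposited scale and cover 0 relative to equally bright probe sets, and the dimmer APOE probe set lies below 0 on both.

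The dimmer APOE probe set was the exception. Relative to its neighbours it stood at −0.23, −0.30, −0.29 and −0.38 in KNP, against 0.14, 0.46, 0.26 and 0.21 in YS. The breeds did not overlap, which was so for 1 of the 9 members and for 8.8% of all probe sets. Its difference was −0.57 (95% confidence interval −0.92 to −0.22, unadjusted p = 0.00411) and missed the threshold after adjustment (limma adjusted p = 0.157). Of its 50 neighbours 22 were lower in KNP, with a median difference of 0.07. The brighter APOE probe set, with a relative difference of 0.05, did not show it, and whether the dimmer one reads the same transcript is unsettled. The difference between them was not tested.

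APOE is also made by macrophages, so their markers are given beside it. Of 12 macrophage markers on the array 11 were tested, and FCER1G, a signalling chain of immunoglobulin receptors, was called higher (0.93, adjusted p = 0.0384). CD74, TYROBP and C1QC had differences of 0.81, 0.65 and 0.63 and were not called. Of the 11 tested, 1 had a lower mean in KNP. Their median difference was 0.49, and 0.46 relative to equally bright probe sets, where 0 were called. On that scale FCER1G showed 0.92 and missed the threshold (limma adjusted p = 0.0599). The summed intensity of the 12 markers was 31334 to 39100 in KNP and 20789 to 36118 in YS, with overlap between the breeds. The summed intensity of 10 hepatocyte markers was 196538 to 266541 in KNP and 334273 to 353913 in YS, without overlap. Very bright probe sets such as ALB, TF, TTR and CYP2E1 dominate this sum, so it is not separate from the brightness pattern above. Among the 10 markers ALB and TF fell, and TTR, CPS1 and HNF4A showed −0.52, −0.36 and −0.48 without a call. CYP2E1, named after its values were seen, showed −1.92 without a call and ran from 555 to 39858 in KNP. Of the 10, 7 were lower in KNP, and the others were higher without a call, with 0.47 for HAMP, 0.09 for ASS1 and 0.02 for TAT (named after their values were seen). Relative to equally bright probe sets 0 of the 10 were called, with a median of 0.03. In whole liver, fewer hepatocytes and less RNA per hepatocyte cannot be told apart, and the part of either in the falls was not tested.

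APOA2, APOM and APOA4 were the members that differed most between animals of one breed. Their SD within a breed was 0.39, 0.45 and 1.80 on the log2 scale, against medians of 0.15, 0.22 and 0.23 among their equally bright neighbours. The highest APOA4 and the lowest APOM were in the same animal, KNP replicate 3. Relative to equally bright probe sets it lay at 2.88 in APOA4, the highest of the 8 animals, at −0.92 in APOM, the lowest, and at −0.38 in APOA2, the lowest of KNP, with YS replicate 1 lower still at −0.53. KNP replicate 2 was its opposite, at −3.07 in APOA4, the lowest of the 8, at 0.27 in APOM and at 0.42 in APOA2, the highest of the 8. In YS, replicate 3 had the lowest APOA4, at −0.84, and the highest APOM, at 0.56. The animal lowest in APOA4 was thus the highest in APOM within each breed, whereas the YS animal highest in APOA4, replicate 2, was not the lowest in APOM.

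**Figure D4:**
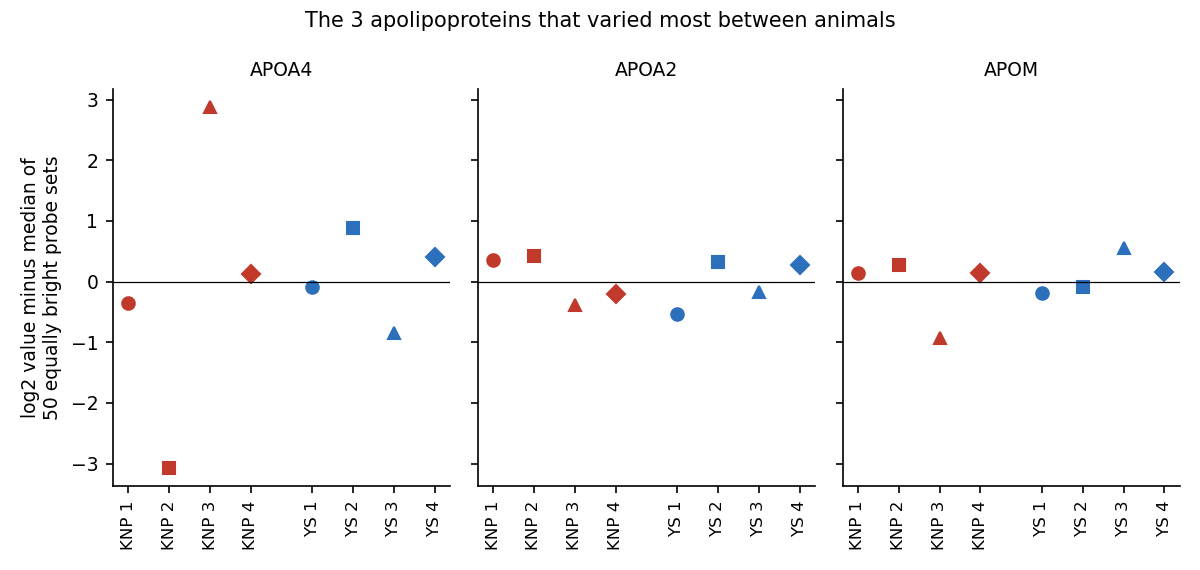
Log2 value minus the median of 50 equally bright probe sets on the same array, for APOA4, APOA2 and APOM in each animal, KNP (red) left of YS (blue), on one shared axis. KNP 3 is highest in APOA4 at 2.88 and lowest in APOM at −0.92, and KNP 2 is lowest in APOA4 at −3.07.

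Since APOA4 is known from intestine, enterocyte markers were examined. Of 5 on the array, FABP2, a fatty acid binding protein of enterocytes, was at 29.2 ± 21.4 in KNP and 44.9 ± 13.7 in YS, below the median of every array, and only VIL1 and ANPEP, which liver also expresses, passed the filter (−0.45 and −0.49, not called). FABP2 was named after its values were seen. The summed intensity of the 5, 2981 to 6684 in KNP and 4824 to 6936 in YS, is nearly all ANPEP and so does not track enterocytes. The part of intestinal cells in APOA4 was not tested. Markers of other cell types were mostly without a call. In KNP RAMP2 was called higher among 8 endothelial markers (1.24, adjusted p = 0.0190), and also relative to equally bright probe sets (1.22, adjusted p = 0.0314), with VWF, PECAM1 and CDH5 next and not called. None was called among 8 stellate and fibroblast markers (DES, ACTA2 and TAGLN had the smallest p), 4 cholangiocyte markers (EPCAM, KRT18 and SPP1), 5 lymphocyte markers (CD2, CD8A and CD3E) and 4 erythroid markers (HBM, AHSP and ALAS2).

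The genes whose log2 values over the 8 arrays were most like those of each member were picked by Pearson's r among 5415 genes, so r is given as a description. The patterns most like APOC3 were those of C3 (0.997), ALB (0.995) and TF (0.994), complement and carrier proteins of plasma. Closest to APOE, with its brighter probe set, were SERPINA3-2 (0.998), SERPINA1 (0.994) and haptoglobin, HP (0.987). APOB was closest to SERPINA3-2 (0.993), the vitamin D carrier GC (0.989) and SERPINA1 (0.987). All of these are secreted liver proteins, and all but SERPINA3-2 (adjusted p = 0.0643) were themselves called lower. The 8 points share their arrays and fall into the 2 breeds. As deviations from the breed means, r was 0.97, 0.93 and 0.92 for APOC3 with C3, ALB and TF, and 0.98 for APOE with SERPINA3-2. These deviations are on the deposited scale, so brightness that differs between arrays of one breed stays in them. Its part in r was not tested. APOA1 was closest to EF1ALPHA (0.977), ZNF706 (0.976) and SEMA4D (0.973), and APOH to ferritin light chain FTL (0.986), TF (0.985) and EF1ALPHA (0.983).

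The genes most like the variable members were different ones. APOA4 was closest to KRR1 (0.962), YBX3 (0.961) and LDHB (0.957), and without the 2 animals farthest from its median, r was 0.85, 0.58 and 0.58. The similarity to YBX3 and LDHB thus rests in good part on the extreme animals. APOM was closest to MACROD1 (0.947), ASRGL1 (0.943) and ATP2C1 (0.942), with 0.75, 0.82 and 0.49 without its 2 farthest animals. APOA2 was closest to PRIM2 (0.904), INSL3 (0.895) and JUP (0.892), with 0.90, 0.75 and 0.80.

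Other proteins that the liver secretes into plasma were set beside the apolipoproteins. Of 21 tested, 8 fell, 0 rose and 13 did not pass, where 0.611% of all probe sets were called lower and 0.424% higher. Of 63 probe sets with a mean log2 value of 15 or more, some of the 21 among them, 32 were called lower. The median difference of the 21 was −0.53, against −0.53 for the 8 apolipoprotein genes by their brightest probe set. ALB had a difference of −0.69, the iron carrier transferrin (TF) −0.70 (−0.36 for its second probe set, not called) and the plasma glycoprotein AHSG −0.86. The retinol carrier RBP4 showed −0.66 (0.28 for its second probe set, not called), HP −0.66, C3 −0.60, fibrinogen beta (FGB) −0.60 and the protease inhibitor SERPINA1 −0.53. The adjusted p of these 8 lay between 0.0190 and 0.0479, and ITIH3, TTR and ORM1 followed with −0.58, −0.52 and −1.06, not called. Of the 21, 20 had a lower mean in KNP. ITIH4, named after its values were seen, was higher without a call, at 0.49 and at 0.95 relative to equally bright probe sets. The other probe sets of ITIH3 showed −0.07 and 0.01. In 18 of the 21 all KNP animals were below all YS animals, which was so in 5.67% of all probe sets tested. Relative to equally bright probe sets 0 of the 21 were called, with a median of 0.02. With each array centred on ALB, 0 of the 9 apolipoprotein probe sets were called, where 8816 of 14398 probe sets were, 8796 of them higher. This centring adds the fall of ALB to every difference. The members called on the deposited scale then showed 0.0018 for APOC3, 0.10 for APOA1, 0.13 for APOH, 0.15 for APOB and 0.18 for APOE.

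Few other apolipoproteins were on the array with a single symbol. Of 17 listed, 6 were there and 5 were tested, all with lower means in KNP and none called, with a median of −0.28. APOF, an inhibitor of cholesterol ester transfer, averaged 18051 ± 3087 in KNP livers and 24647 ± 1238 in YS livers without overlap (−0.46, SE 0.14, adjusted p = 0.149). Clusterin (CLU), also known as APOJ, showed −0.43, and the acute phase apolipoprotein SAA2 −0.28, neither called. APOC2, the activator of lipoprotein lipase and so the counterpart of APOC3, showed −0.15 (adjusted p = 0.650) and 0.27 relative to equally bright probe sets, and was picked after its values were seen.

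Among 11 tested genes of the machinery that loads and exports VLDL none was called, 4 were lower in KNP and the median was 0.11. MTTP, which transfers lipid onto APOB, lay at 6204 ± 1440 in KNP and 5525 ± 777 in YS (0.15, SE 0.19, adjusted p = 0.756; chosen after its value was seen). PDIA3, a disulfide isomerase of the endoplasmic reticulum, lay at 10371 ± 3085 in KNP and 5433 ± 660 in YS without overlap, which missed the threshold (0.90, SE 0.19, adjusted p = 0.0590). Its other probe sets showed 1.95 and 0.44. The coat GTPase SAR1A showed −0.52 with other probe sets at 0.21 and 0.17, and CIDEB, a lipid droplet protein needed for VLDL lipidation, 0.49.

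Among 10 genes of HDL formation and remodelling none was called and 4 were lower in KNP, with a median of 0.08. LCAT, which esterifies cholesterol on HDL and is activated by APOA1, lay at 5174 ± 1058 in KNP and 3211 ± 258 in YS without overlap (0.67, SE 0.16, adjusted p = 0.0908). The paraoxonases PON3 and PON2, of which PON3 travels on HDL, showed 1.17 and −0.19. Of 7 tested receptors, lipases and their regulators none was called and the median was −0.05. LRPAP1, a chaperone of LDL receptor family members, MYLIP, which degrades the LDL receptor, and lysosomal lipase LIPA showed 0.50, −0.54 and −0.38. Of 13 transcription factors known to act on apolipoprotein genes none was called and the median was 0.09. HNF4A averaged 7138 ± 1694 in KNP livers, against 9747 ± 693 in YS livers, without overlap (−0.48, adjusted p = 0.253), with −0.08 for its second probe set. The liver X receptor NR1H3 averaged 1684 ± 72 in KNP livers and 1281 ± 236 in YS livers, also without overlap but higher in KNP (0.41, adjusted p = 0.268). FOXA2 showed 0.45, not called.

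**Figure D5:**
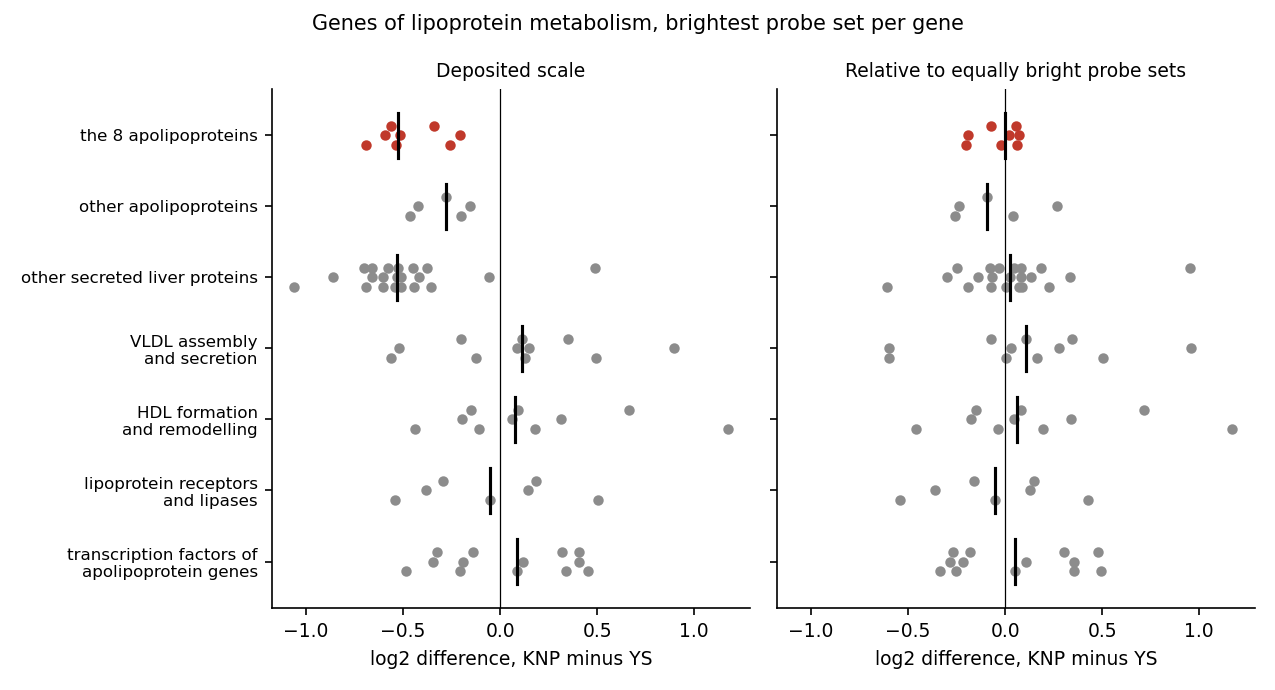
Breed difference (KNP minus YS, log2) of each tested gene by its brightest probe set, on the deposited scale (left) and relative to equally bright probe sets (right); points are genes and black bars list medians. The 8 apolipoproteins and the other secreted liver proteins both have a median of −0.53 on the left. Their medians are 0.001 and 0.02 on the right, with ITIH4 of the secreted proteins at 0.95. The other lists have medians between −0.28 and 0.11 on the left.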

How the data were processed

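Liver RNA of 8 pigs, 4 per breed as given by the sample titles, was hybridized to 1 array each. Each deposited value is a linear probe set intensity. The authors' intensities appear scaled to a common level, since the mean between percentiles 2 and 98 was 500.1 on each array. The submitters' processing notes name GCOS 1.3; the sources used here do not give the signal algorithm, background step or detection calls. The number of arrays limits the precision.

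Gene symbols come from the array annotation (single symbols only), and all 9 probe sets had their gene in the Sscrofa11.1 table. Values were taken as log2(intensity + 16), controls named AFFX and the lower 40% of probe sets by mean log2 value were left out, and 14399 were fitted with limma 3.58.1 (R 4.3.3; intensity trend, breed as the only term, two-sided, Benjamini-Hochberg). A probe set whose name marks a reporter (RPTR) stayed in, with a mean log2 value of 15.46 and a difference of −0.70. For the second scale the median of the 50 probe sets nearest in mean log2 value, members excluded, was subtracted on each array. Both fits were tested on simulated data. A gene of a list was represented by its probe set with the highest mean. No probe set's level was set against another's as an amount of transcript.

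Named are all members, ALB, from each list the genes past the threshold and up to 3 more with the smallest p, and 3 most similar genes per member. Members and lists were chosen with earlier results of these data known. Replicate numbers name different animals, and the labels state no pairing. The correlations of same-numbered deviations from the breed means ran from -0.02 to 0.05, and the fit did not pair the animals. With 4 animals per breed these correlations cannot settle whether a pairing existed. Alternatives were other pseudocounts, scalings, filters, weights, a covariate, a block, and each animal left out in turn.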

Additional observations from a re-analysis of the deposited data

How the results depend on the processing

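On the deposited scale 5 member probe sets were called lower. This number was 5 with a pseudocount of 1 or 64, median centring, the lower 60% left out or array weights. It was 0 with quantile or cyclic loess normalization, centring on bright probe sets or on ALB, no filter, no intensity trend, the actin ratio as a covariate, a replicate block or a threshold of 0.01. Leaving out 1 animal gave 0 to 5 calls, with 0 for KNP replicate 1 and each YS animal, 2 for KNP replicate 2, 1 for KNP replicate 3 and 5 for KNP replicate 4. With the probe sets of each gene averaged 3 genes were called, against 5. The cause of these losses was not tested. No filter adds probe sets to the adjustment, and a left-out animal or a block leaves fewer degrees of freedom. The part of either in the losses was not tested, and without KNP replicate 4 all 5 calls stayed. The 5 called differences kept their sign and lay between -0.73 and -0.34 outside the quantile, loess, bright probe set and ALB scalings.

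Signs of called genes turned with quantile normalization, to 0.017 for APOA1, 0.031 for APOE, 0.016 for APOH, 0.0045 for C3 and 0.016 for SERPINA1. With centring on ALB they turned to 0.0952 for APOA1, 0.15 for APOB, 0.0018 for APOC3, 0.18 for APOE, 0.13 for APOH, 0.029 for RBP4, 0.032 for HP, 0.0896 for C3, 0.088 for FGB and 0.16 for SERPINA1, and PON2 (0.50) and SAA2 (0.41) became called higher; that centring moved the median of all probe sets to 0.68. Relative to equally bright probe sets 0 members were called under every alternative, with 20 or 200 neighbours, other pseudocounts, a replicate block, or any animal left out. With 200 neighbours 8 of the 9 were lower, against 5. Cyclic loess also left 8 of 9 lower, and centring on bright probe sets left the 5 called ones between -0.38 and -0.20. Over all probe sets tested 149 were called, 14 after quantile or cyclic loess normalization, 35 without a filter, 13 without the trend, 8 with the actin ratio, 8 with a replicate block, 5 at a threshold of 0.01, 1000 and 8816 with the centrings on bright probe sets and ALB, and 8 to 119 with 1 animal left out. A replicate block lost all member calls, with adjusted p of 0.082 for APOC3 to 0.14 for APOE; no KNP animal correlated best with the YS animal of its number.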

Other observations

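None of 18 groups of 4 animals, 1 per breed and apolipoprotein probe set, held an animal past Dixon's critical value on the log2 scale, although APOA4 spanned 140 to 9483 in KNP.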
